A study of Mus musculus with 51 samples.

Results

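Haematopoietic stem cells (HSC) from Mll-AF9 knock-in mice were compared with HSC from wild-type mice, by taking every array whose sample title names one of those groups. The comparison holds 10 of the 51 arrays of the series, 5 of Mll-AF9 HSC and 5 of wild-type HSC. The other arrays measured common myeloid progenitors (CMP), granulocyte-macrophage progenitors (GMP) and common lymphoid progenitors (CLP) of the same genotypes, and the stated purpose was to find the genes that the knock-in changes in each cell type. All cells were sorted from bone marrow into extraction buffer, RNA was amplified in a 2-cycle labelling reaction, and 1 biotin-labelled sample was hybridised per Affymetrix array. Mll-AF9 mice carry the fusion as a knock-in, and the labels name no other allele and no treatment in either group. Not given in the sources used here are the age, strain, sex and zygosity of the mice, the surface markers of the sort, and whether a replicate was 1 mouse or a pool. The p-values below thus reflect only how far these arrays varied, which may be technical in part.

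MLL, the product of Kmt2a, is a histone methyltransferase that keeps Hox genes active, and it binds DNA through a domain that recognises unmethylated CpG. In MLL-AF9 leukaemia the methyltransferase end of MLL is replaced by AF9 (Mllt3), a member of the elongation machinery, and the fusion is known for driving HoxA genes and Meis1 in myeloid progenitors. HSC already use many of these genes in their normal state, since HoxA genes, Meis1 and Mecom are part of the stem cell programme.

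Levels are given as log2 of the deposited intensity, for 18193 genes with 1 probe set each. A level under 4.62 is called background, because 95% of 114 receptor and keratin-associated genes not used in blood lay below it. Differences are Mll-AF9 minus wild type, with the standard error (SE) of the limma fit, and a gene was called at an adjusted p below 0.05 over all genes.

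The sorted cells carried several stem cell transcripts in both genotypes. Kit, the stem cell factor receptor, averaged 8.83 ± 0.60 in Mll-AF9 HSC and 8.54 ± 0.20 in wild-type HSC (SD, n = 5 each). Hlf, a stem cell transcription factor, averaged 10.53 ± 0.42 in Mll-AF9 HSC and 10.07 ± 0.27 in wild-type HSC. Procr, a receptor used to enrich stem cells, averaged 8.47 ± 0.74 in Mll-AF9 HSC and 8.56 ± 0.86 in wild-type HSC. Ly6a, also on the HSC marker list, had no probe set assigned to that gene alone. Slamf1, another marker on it, averaged below background in wild-type HSC and above it in Mll-AF9 HSC, with levels given further on. The populations also held transcripts of multipotent and lymphoid-primed progenitors. Dntt, the terminal transferase of lymphoid progenitors, reached 10.93 ± 0.87 in Mll-AF9 HSC and 11.59 ± 0.48 in wild-type HSC, near the 11.67 ± 0.53 of Mll-AF9 CLP and the 12.30 ± 0.25 of wild-type CLP. Flt3, a cytokine receptor of multipotent progenitors, averaged 9.25 ± 0.55 in Mll-AF9 HSC and 9.86 ± 0.58 in wild-type HSC. In such bulk samples, fewer cells of a type and less RNA per cell cannot be told apart.

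Markers that define mature cells were uneven. Cd79a, Ms4a1, Pax5 and Ebf1 of B cells, Cd3g of T cells, Hba-a1 and Alas2 of red cells and Col1a1 and Cdh5 of stroma and vessels averaged below background in both groups. Other members of these lists were above it in at least 1 group: 5 of 13 B-lineage genes, 5 of 17 T and NK cell genes, 12 of 16 erythroid genes and 8 of 15 stroma and endothelium genes. The mean level of the erythroid list ran between 5.75 and 7.46 in Mll-AF9 HSC, highest in replicate 1, and between 6.02 and 6.36 in wild-type HSC. Neutrophil transcripts varied between arrays: the mean level of 19 neutrophil genes ran between 5.40 and 7.68 in Mll-AF9 HSC and between 6.47 and 7.46 in wild-type HSC. S100a8, a neutrophil calcium-binding protein, was at 9.65, 8.89, 4.78, 4.28 and 9.17 in the Mll-AF9 arrays and at 7.83, 7.67, 7.17, 10.59 and 7.46 in the wild-type arrays. The lowest values belonged to Mll-AF9 replicates 3 and 4, and the part of such cells in the results was not tested.

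Some arrays stood apart. Every Mll-AF9 array had Xist, the RNA of the inactive X chromosome, between 11.47 and 12.06 and Y-linked genes below background. In wild-type HSC, replicates 1 and 2 had Xist at 3.85 and 4.31 and a mean of Kdm5d, Eif2s3y and Uty of 6.91 and 6.97, whereas replicates 3 to 5 resembled the Mll-AF9 arrays. Results are therefore also given without wild-type replicates 1 and 2, an alternative chosen after these values were seen. Mll-AF9 replicate 2 had the lowest median correlation with its own group, 0.953 across genes. Wild-type replicate 5 had interferon response genes at a mean of 8.08, against 6.19 to 6.80 in the other wild-type arrays, and immediate-early genes at 7.93, against 9.51 to 10.88. The 3' minus 5' difference of the Actb and Gapdh control probe sets, a sign of RNA quality, averaged 3.55 ± 0.43 in Mll-AF9 HSC and 3.63 ± 0.47 in wild-type HSC (SD, n = 5 each). It did not differ beyond the spread (two-sided exact permutation test, p = 0.762, with 0.0079 the smallest p the design allows). Genes varied more within HSC groups than within CMP groups: the median SD over genes was 0.41 in Mll-AF9 and 0.38 in wild-type HSC, against 0.23 and 0.16 in CMP of those genotypes, most of which are means of repeat runs. It was 0.40 and 0.41 in CLP and 0.22 and 0.29 in GMP of those genotypes, in each case over genes with a mean above background in HSC.

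The comparison called 10 genes, which is 0.0550% of the genes tested. Of these, 4 rose in Mll-AF9 HSC, 0.0220% of the genes, and 6 fell, 0.0330% of the genes. At an unadjusted p below 0.05, 578 genes were higher (3.18%) and 587 were lower (3.23%), and the groups did not overlap for 128 higher genes (0.704%) and 96 lower genes (0.528%). The median difference over all genes was 0.01. Without wild-type replicates 1 and 2, 3 genes were called higher and 1 lower, and 3 of the 10 genes above were among them, namely Skida1, Il18r1 and Klhl4. At an unadjusted p below 0.05, that alternative had 348 higher and 533 lower genes of 18193.

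**Figure D1:**
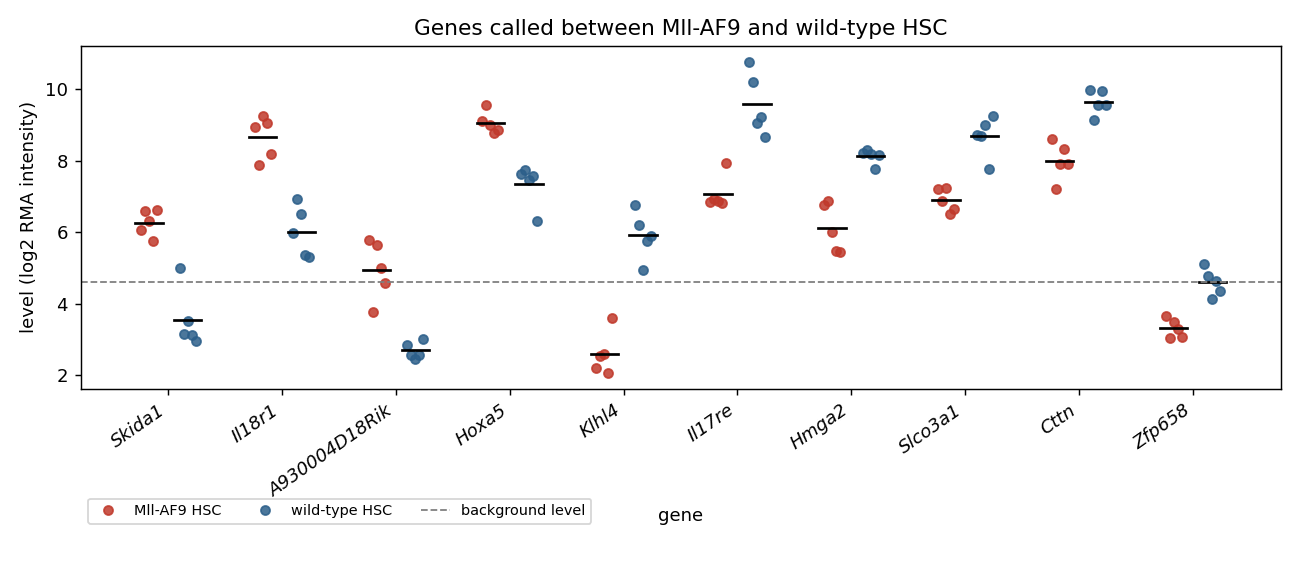
The vertical axis gives the level (log2 RMA intensity) of the 10 called genes in each array of Mll-AF9 HSC (red, left) and wild-type HSC (blue, right), with bars at the means of 5 arrays and a dashed line at the background level of 4.62. For each of these genes the Mll-AF9 and wild-type points do not overlap.

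Among the 4 genes that rose, Skida1 encodes a nuclear protein with a SKI/DACH domain and stands on the list of MLL-fusion targets. It had levels of 6.07, 6.59, 6.31, 5.76 and 6.62 in Mll-AF9 HSC, against 4.98, 3.17, 3.52, 3.13 and 2.96 in wild-type HSC. All Mll-AF9 arrays lay above background, and wild-type replicate 1 was the only wild-type array that did. The difference was 2.72 (SE 0.34, adjusted p = 0.0077), and with the wild-type arrays raised to the background level the gene was at least 2.99-fold higher. It was called in 22 of 22 alternative analyses.

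A930004D18Rik, a transcript known only by a clone name, rose with it. Its levels were 5.77, 3.77, 5.65, 5.00 and 4.57 in Mll-AF9 HSC, against 2.85, 2.56, 2.45, 2.57 and 3.02 in wild-type HSC. Every wild-type array lay below background, and Mll-AF9 replicates 2 and 5 did too. The difference was 2.26 (SE 0.31, adjusted p = 0.0122), or at least 1.26-fold. In the gene order of GRCm38.p6 on chromosome 2, only Gm17762 lies between A930004D18Rik and Skida1. On the other side of Skida1 is Mllt10, which encodes AF10, another fusion partner of MLL. Mllt10 averaged 8.56 ± 0.52 in Mll-AF9 HSC and 8.25 ± 0.25 in wild-type HSC, a difference of 0.31 (SE 0.26, adjusted p = 0.858).

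Il18r1 encodes the binding chain of the interleukin-18 receptor. Its levels were 8.94, 7.87, 9.25, 9.06 and 8.20 in Mll-AF9 HSC, against 5.98, 6.92, 6.51, 5.36 and 5.29 in wild-type HSC. The lowest Mll-AF9 array, replicate 2, was still above the highest wild-type array, replicate 2. The difference of 2.65 (SE 0.36, adjusted p = 0.0122) was a 6.28-fold change, and it lost its call without Mll-AF9 replicate 3 (adjusted p = 0.064) or replicate 4 (adjusted p = 0.053). Il18rap, the accessory chain of the same receptor and the next gene on chromosome 1, averaged 7.44 ± 0.37 in Mll-AF9 HSC and 7.41 ± 0.49 in wild-type HSC. Its difference was 0.02 (SE 0.28).

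Hoxa5, a homeobox transcription factor, had levels of 9.10, 9.57, 9.01, 8.78 and 8.87 in Mll-AF9 HSC, against 7.64, 7.75, 7.45, 7.57 and 6.33 in wild-type HSC. The groups were more than 1 unit apart at their nearest arrays, and wild-type replicate 5 was the lowest. The difference was 1.72 (SE 0.28, adjusted p = 0.0438), a 3.29-fold change, and a second probe set differed by 1.36. Hoxa5 was called in 5 of 22 alternatives, so it lay close to the threshold.

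Of the 6 genes that fell, Klhl4 had the smallest p. It is an X-linked member of the kelch-like family, whose members serve as adaptors of ubiquitin ligases. Its levels were 2.19, 2.55, 2.59, 2.06 and 3.61 in Mll-AF9 HSC, against 6.76, 6.21, 4.95, 5.74 and 5.89 in wild-type HSC. All Mll-AF9 arrays lay below background and all wild-type arrays above it. The difference was -3.31 (SE 0.33, adjusted p = 0.00088), or at least 2.45-fold lower, and it was called in 22 of 22 alternatives. Without wild-type replicates 1 and 2 it was -2.93 (adjusted p = 0.0076).

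Il17re encodes a receptor chain for interleukin-17C. Its levels were 6.83, 6.93, 6.86, 6.81 and 7.94 in Mll-AF9 HSC, against 10.77, 10.19, 9.07, 9.22 and 8.66 in wild-type HSC. The highest wild-type arrays were replicates 1 and 2, those with Y-linked signal. The difference was -2.51 (SE 0.38, adjusted p = 0.025), a 5.69-fold change, and without those replicates it was -1.91 (adjusted p = 0.119). Other probe sets of Il17re moved less, with a difference of -0.63 for the one that lay above background.

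Hmga2, an architectural chromatin protein known for its part in the self-renewal of fetal stem cells, had levels of 6.76, 6.87, 6.00, 5.48 and 5.44 in Mll-AF9 HSC. In wild-type HSC they were 8.23, 8.30, 8.18, 7.78 and 8.15. The wild-type arrays were tightly grouped and lay above every Mll-AF9 array. The difference was -2.02 (SE 0.30, adjusted p = 0.025), a 4.04-fold change, and the other 3 probe sets differed by -1.42, -1.51 and -2.72. Without wild-type replicates 1 and 2 the difference was -1.93 (adjusted p = 0.24).

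Slco3a1, an organic anion transporter, had levels of 7.20, 6.88, 7.25, 6.51 and 6.66 in Mll-AF9 HSC, against 8.72, 8.70, 8.99, 7.77 and 9.26 in wild-type HSC. The groups did not overlap, and wild-type replicate 4 came nearest to the Mll-AF9 arrays. The difference was -1.79 (SE 0.29, adjusted p = 0.0373), a 3.45-fold change. Cttn, which encodes the actin-binding protein cortactin, had levels of 8.61, 7.22, 7.89, 8.32 and 7.92 in Mll-AF9 HSC, against 9.98, 9.14, 9.56, 9.94 and 9.56 in wild-type HSC. Here too the groups did not overlap, and the difference was -1.64 (SE 0.27, adjusted p = 0.0438), a 3.13-fold change. The sixth gene, the zinc finger gene Zfp658, ran between 3.04 and 3.65 in Mll-AF9 HSC and between 4.14 and 5.11 in wild-type HSC. The groups did not overlap and the difference was -1.30 (SE 0.20, adjusted p = 0.0307), but both means lay below background and no fold is given. Slco3a1, Cttn and Zfp658 were called in 11 of 22, 9 of 22 and 10 of 21 alternatives, and none of them without wild-type replicates 1 and 2 (adjusted p = 0.261, 0.199 and 0.24).

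Sequence upstream of the called genes is shown for Il18r1 and Hoxa5 among the higher genes and for Klhl4, the lower gene with the smallest p, because a CpG-binding domain is part of the fusion. These 3 were chosen after their values were seen. The RefSeq promoter table of GRCm38.p6 gives 250 bases before and 50 after each gene's start, and 7 of the 10 called genes matched an entry. Skida1, Slco3a1 and Cttn are named only. The window of Il18r1 is the first of 3 at chr1:40465302-40465601 on the plus strand, that of Hoxa5 is at chr6:52204538-52204837 on the minus strand, and that of Klhl4 is at chrX:114474083-114474382 on the plus strand. Each is printed in the direction of transcription, with CG dinucleotides in capitals.
Il18r1: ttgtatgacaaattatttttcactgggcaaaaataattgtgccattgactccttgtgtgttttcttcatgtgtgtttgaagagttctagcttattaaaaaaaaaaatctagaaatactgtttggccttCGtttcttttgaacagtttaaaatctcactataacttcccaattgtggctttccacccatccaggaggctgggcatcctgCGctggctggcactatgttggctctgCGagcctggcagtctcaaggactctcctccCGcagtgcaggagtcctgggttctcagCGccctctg
Hoxa5: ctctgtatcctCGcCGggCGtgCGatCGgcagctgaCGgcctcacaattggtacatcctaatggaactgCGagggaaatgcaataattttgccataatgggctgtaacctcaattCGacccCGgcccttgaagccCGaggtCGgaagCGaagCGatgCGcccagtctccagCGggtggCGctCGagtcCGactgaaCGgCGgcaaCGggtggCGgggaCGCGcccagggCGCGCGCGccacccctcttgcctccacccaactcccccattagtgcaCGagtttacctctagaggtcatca
Klhl4: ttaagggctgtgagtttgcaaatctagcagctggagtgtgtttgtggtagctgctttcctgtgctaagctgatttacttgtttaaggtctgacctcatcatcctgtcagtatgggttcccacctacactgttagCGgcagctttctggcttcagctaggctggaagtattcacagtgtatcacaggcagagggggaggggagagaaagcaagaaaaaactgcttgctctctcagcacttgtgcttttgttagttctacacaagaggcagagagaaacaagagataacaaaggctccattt
The Hoxa5 window held 29 CG dinucleotides, the Il18r1 window 5 and the Klhl4 window 1, against a median of 7 (quartiles 3 and 20) over 32851 windows of 27025 genes. The other windows of Il18r1 held 7 and 8. Among the called genes not printed, the counts were 3 for A930004D18Rik, which rose, and 12 for Hmga2, 3 for Il17re and 19 for Zfp658, which fell, so the counts of higher and lower genes overlapped. The motif TGATTTA, bound by HOX proteins with PBX, and TGACAG, bound by MEIS proteins, were searched on both strands. TGATTTA was in 2.97% and TGACAG in 19.2% of all windows. The Klhl4 window held both, starting at positions 70 and 103 of the window, the A930004D18Rik window held TGACAG at position 202, and the windows of Il18r1, Hoxa5, Hmga2, Il17re and Zfp658 held neither.

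The HoxA genes were the next group examined, as the classic targets of MLL fusions. Of 9 measured, Hoxa5 rose, and 4 were higher at an unadjusted p below 0.05 (Hoxa2, Hoxa5, Hoxa9 and Hoxa10), against 3.18% of all genes. None was lower at that p, against 3.23% of all genes, and the median difference was 0.20, against 0.01 for all genes. The mean level of the 9 genes lay between 5.85 and 6.04 in Mll-AF9 HSC and between 5.09 and 5.68 in wild-type HSC, with no overlap.

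Hoxa9, the homeobox gene most tied to MLL leukaemia, was bright in both groups, though below the 13.84 that Ighm averaged in wild-type HSC. Its levels were 12.83, 12.64, 13.16, 12.92 and 12.56 in Mll-AF9 HSC, against 12.57, 12.53, 12.13, 12.08 and 11.52 in wild-type HSC. The groups overlapped slightly, and the difference was 0.65 (SE 0.18, adjusted p = 0.381). Another probe set of Hoxa9, at 7.43 in Mll-AF9 HSC and 6.61 in wild-type HSC, differed by 0.82. Hoxa10 had levels of 6.25, 5.80, 6.03, 6.23 and 4.49 in Mll-AF9 HSC, against 4.03, 4.23, 4.39, 4.46 and 4.59 in wild-type HSC. Mll-AF9 replicate 5 fell among the wild-type arrays, which were all below background, and the difference was 1.42 (SE 0.30, adjusted p = 0.117). Hoxa2 averaged 4.94 ± 0.38 in Mll-AF9 HSC and 4.19 ± 0.79 in wild-type HSC, a difference of 0.75 (SE 0.33, adjusted p = 0.765). Hoxa7 was detected in both groups with a difference of 0.20, while Hoxa3, Hoxa4, Hoxa11 and Hoxa13 averaged below background in both. Hoxa6 had no probe set of its own.

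The HoxB genes gave no call. Of 9 measured, 0 were called in limma and 0 passed an unadjusted p below 0.05, with differences between -0.47 for Hoxb3 and 0.14 for Hoxb1. Only Hoxb3 and Hoxb4 had a group mean above background, and Hoxb4 averaged 6.04 ± 0.93 in Mll-AF9 HSC and 6.26 ± 0.51 in wild-type HSC.

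**Figure D2:**
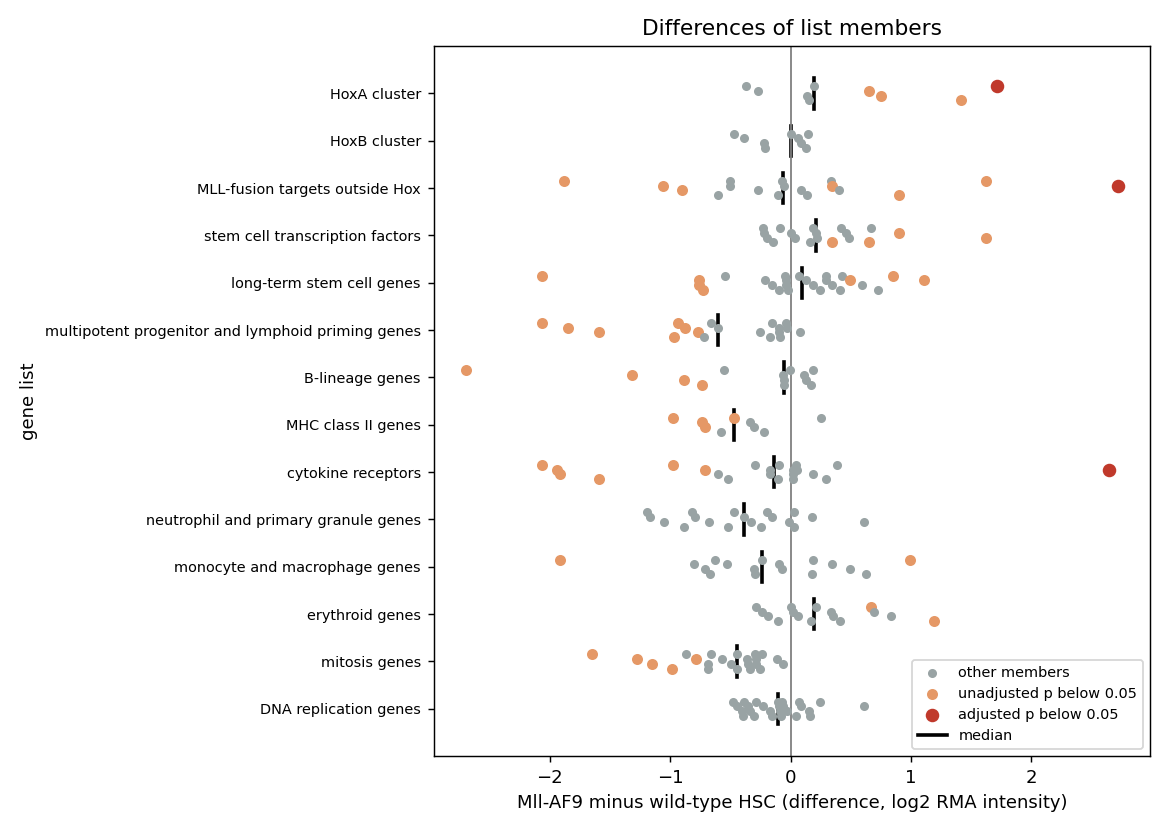
The horizontal axis gives the difference of each measured list member, Mll-AF9 minus wild-type HSC (log2 RMA intensity), with lists in rows, a bar at each median and colour by p. Members called at an adjusted p below 0.05 are Hoxa5, Skida1 and Il18r1 in the lists drawn, and the medians lie between -0.60 for multipotent progenitor and lymphoid priming genes and 0.21 for stem cell transcription factors.

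Known MLL-fusion targets outside the Hox clusters had 1 call. Of 18 measured, Skida1 rose, and the median difference was -0.06. At an unadjusted p below 0.05, 4 were higher and 3 lower, against 3.18% and 3.23% of all genes. Mecom encodes the zinc finger factor EVI1, which maintains stem cells. Its levels were 10.63, 10.21, 10.48, 10.57 and 10.11 in Mll-AF9 HSC, against 9.69, 9.27, 8.18, 8.98 and 7.76 in wild-type HSC. The groups did not overlap, and the wild-type arrays were spread more widely. The difference was 1.62 (SE 0.31, adjusted p = 0.087), and without wild-type replicates 1 and 2 it was 2.09 (adjusted p = 0.021), which passed the threshold.

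Meis1, the homeobox partner of Hoxa9, had levels of 10.86, 10.41, 10.96, 11.32 and 10.04 in Mll-AF9 HSC, against 9.85, 9.18, 10.10, 10.34 and 9.59 in wild-type HSC. Mll-AF9 replicate 5 fell within the wild-type range, and the difference was 0.91 (SE 0.26, adjusted p = 0.442). Other probe sets of Meis1, also above background, differed by 0.54 and 0.12. Lmo2, a bridging factor of stem cell transcription complexes, differed by 0.35 (SE 0.15, adjusted p = 0.774). The members with negative differences at that p were also transcription regulators. Pbx3, a partner of HOX proteins, had levels of 4.23, 5.44, 4.38, 5.34 and 2.30 in Mll-AF9 HSC, against 5.45, 5.48, 6.82, 6.63 and 6.72 in wild-type HSC. The nearest arrays of the groups almost touched, and the difference was -1.88 (SE 0.50, adjusted p = 0.327). Eya1, a transcriptional coactivator with phosphatase activity, differed by -1.06 (SE 0.30, adjusted p = 0.378), and Prdm16, a relative of Mecom, by -0.90 (SE 0.33, adjusted p = 0.658). Another probe set above background differed by -0.24 for Eya1 and by 0.07 for Prdm16. Myb, Cdk6 and Bcl2, which are abundant in leukaemia cells, differed by 0.14, -0.11 and 0.09.

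The genes of the fusion itself and of its complexes gave no call. Of 22 measured genes of the MLL and elongation complexes, 0 were called in limma and 0 passed an unadjusted p below 0.05, and the median difference was 0.06. Kmt2a averaged 7.52 ± 0.72 in Mll-AF9 HSC and 8.02 ± 0.49 in wild-type HSC, a difference of -0.50 (SE 0.34). Mllt3 averaged 7.98 ± 0.29 in Mll-AF9 HSC and 7.53 ± 0.62 in wild-type HSC, a difference of 0.45 (SE 0.30). The probe sets could not check the labels, since where each lies relative to the fusion point was not known.

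Stem cell transcription factors had differences above 0 for 14 of 19 genes, against 9537 of 18193 over all genes. Of 19 measured, 0 were called in limma and the median was 0.21. At an unadjusted p below 0.05, 4 were higher and 0 lower, against 3.18% and 3.23% of all genes. The 4 were Mecom, Meis1, Lmo2 and Gata2, and 3 of them also stand on the fusion target list. Gata2, a zinc finger factor of stem and mast cells, averaged 9.14 ± 0.37 in Mll-AF9 HSC and 8.49 ± 0.18 in wild-type HSC, a difference of 0.65 (SE 0.22, adjusted p = 0.623).

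Genes enriched in long-term stem cells were divided. Of 26 measured, 0 were called in limma and the median was 0.10. At an unadjusted p below 0.05, 3 were higher and 4 lower, against 3.18% and 3.23% of all genes. Slamf1 (CD150), a surface marker of long-term stem cells, had levels of 4.85, 4.71, 6.03, 5.98 and 5.70 in Mll-AF9 HSC, against 3.80, 4.69, 4.08, 3.83 and 5.35 in wild-type HSC. The groups overlapped through wild-type replicate 5, the wild-type mean lay below background, and the difference was 1.11 (SE 0.34, adjusted p = 0.512). Tek, the angiopoietin receptor, differed by 0.85 and its ligand Angpt1 by 0.49. In the other direction, Ptger3, a prostaglandin E2 receptor, had levels of 5.49, 4.32, 6.38, 7.06 and 7.17 in Mll-AF9 HSC, against 8.22, 7.65, 8.37, 8.08 and 8.43 in wild-type HSC. The groups did not overlap and the Mll-AF9 arrays were widely spread, with a difference of -2.07 (SE 0.45, adjusted p = 0.137). Fgd5, Fhl1 and Krt18 differed by -0.76, -0.73 and -0.76. In the list, 2 genes were higher and 2 lower at that p without wild-type replicates 1 and 2.

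Of 19 multipotent progenitor and lymphoid priming genes, 0 were called in limma. The differences lay below 0 for 18 of 19 genes, against 8656 of 18193 over all genes. At an unadjusted p below 0.05, 7 were lower, against 3.23% of all genes, and 0 were higher. The median was -0.60, against 0.01 for all genes. The mean level of the 19 genes ran between 7.07 and 7.58 in Mll-AF9 HSC and between 7.50 and 8.16 in wild-type HSC, so the groups overlapped only at Mll-AF9 replicate 1 and wild-type replicate 4. Without wild-type replicates 1 and 2 the median was -0.45, and 5 genes were lower at that p.

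Il7r, the interleukin-7 receptor that supports lymphoid progenitors, had levels of 3.28, 4.59, 3.33, 2.99 and 3.13 in Mll-AF9 HSC, against 4.72, 5.14, 5.20, 4.69 and 5.52 in wild-type HSC. All Mll-AF9 arrays were below background and all wild-type arrays slightly above it. The difference was -1.59 (SE 0.28, adjusted p = 0.0636), or at least 1.35-fold. Ccr9, a homing receptor of thymus-seeding progenitors, had levels of 3.28, 3.10, 2.66, 2.78 and 2.87 in Mll-AF9 HSC, against 6.63, 6.41, 5.06, 3.31 and 3.61 in wild-type HSC. Only wild-type replicates 1 to 3 were above background, and the difference of -2.07 (SE 0.53, adjusted p = 0.286) was -1.06 without replicates 1 and 2.

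Cnn3, an actin-binding calponin, had levels of 7.90, 7.19, 6.74, 6.49 and 6.07 in Mll-AF9 HSC, against 8.84, 9.76, 8.45, 7.29 and 9.27 in wild-type HSC. Wild-type replicate 4 overlapped the Mll-AF9 arrays, and the difference was -1.85 (SE 0.43, adjusted p = 0.204). Satb1, a chromatin organiser of lymphoid-primed cells, differed by -0.97 (SE 0.32), Il12a, an interleukin-12 subunit, by -0.94 (SE 0.32), Tcf4, an E-protein, by -0.88 (SE 0.28) and Notch1, the T-lineage receptor, by -0.77 (SE 0.26). For Dntt and Flt3, the abundant members given above, the differences were -0.66 (SE 0.35, unadjusted p = 0.0759) and -0.60 (SE 0.31, unadjusted p = 0.0686).

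**Figure D3:**
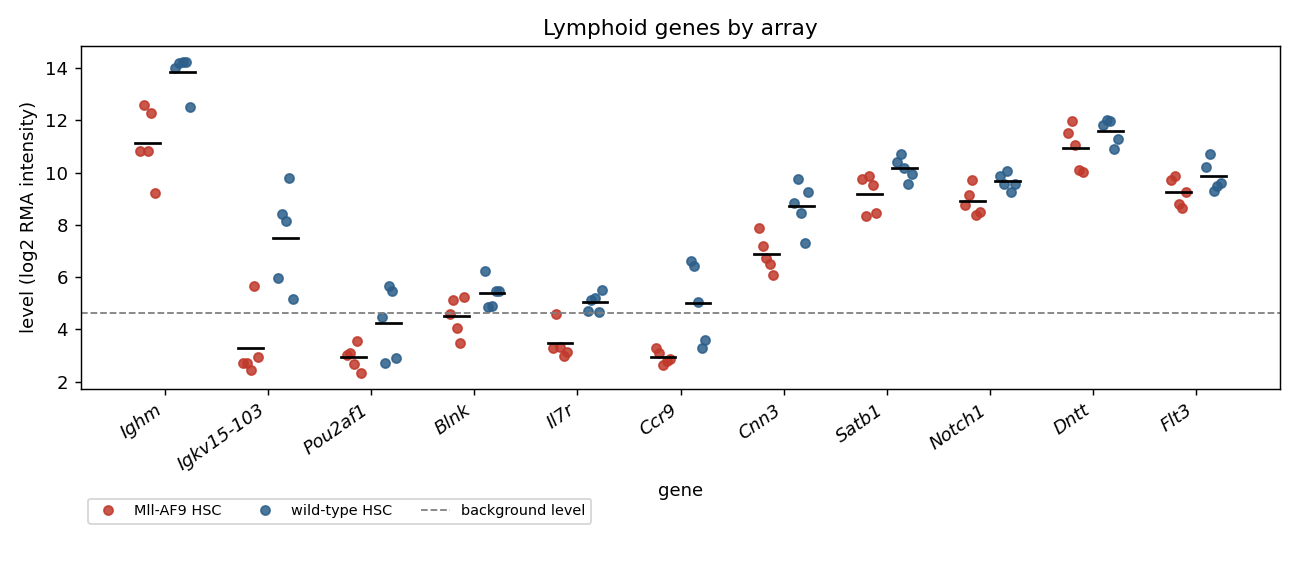
The vertical axis gives the level (log2 RMA intensity) of B-lineage and lymphoid priming genes in each array of Mll-AF9 HSC (red, left) and wild-type HSC (blue, right), with bars at means of 5 arrays and a dashed line at background. Ighm means are 11.15 in Mll-AF9 and 13.84 in wild-type HSC, while Dntt means are 10.93 and 11.59 for those groups and its points overlap widely.

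The immunoglobulin transcripts named here are Ighm, which had the largest difference on the B-lineage list, and Igkv15-103, which is not on that list. Ighm, the mu heavy chain, had levels of 10.82, 12.59, 10.81, 12.29 and 9.22 in Mll-AF9 HSC, against 14.00, 14.21, 14.24, 14.25 and 12.50 in wild-type HSC. The groups overlapped through wild-type replicate 5, which was far below the other wild-type arrays, and the difference was -2.69 (SE 0.52, adjusted p = 0.087). Another probe set of Ighm differed by -3.17, and the remaining one above background by 0.06. Igkv15-103, a kappa variable segment whose probe set may also bind related segments, had levels of 2.70, 2.70, 2.46, 5.65 and 2.94 in Mll-AF9 HSC, against 5.98, 8.40, 8.16, 9.81 and 5.18 in wild-type HSC. Only Mll-AF9 replicate 4 reached the wild-type range, and the difference was -4.21 (SE 0.78, adjusted p = 0.0745), or at least 6.42-fold.

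Of 13 B-lineage genes measured, 0 were called in limma and the median was -0.06. Against 3.23% and 3.18% of all genes, 4 were lower and 0 higher at an unadjusted p below 0.05. Beside Ighm these were Pou2af1, a coactivator of immunoglobulin genes whose means were both below background (-1.31, SE 0.49), the adaptor Blnk (-0.88, SE 0.35) and Cd74, the invariant chain (-0.74, SE 0.23). The B-cell markers Cd79a, Ms4a1, Pax5 and Ebf1 were, as given above, below background. The mean level of the list ran between 4.46 and 5.29 in Mll-AF9 HSC and between 4.95 and 5.40 in wild-type HSC. Of 9 MHC class II genes measured, 0 were called in limma and the median was -0.47. Against the same shares of all genes, 4 were lower and 0 higher at that p. The 4 were Cd74 again, H2-Ab1 (-0.98, SE 0.29), H2-Aa (-0.71, SE 0.26) and the peptide-loading chain H2-DMa (-0.47, SE 0.22). The median was -0.30 without wild-type replicates 1 and 2, and 2 genes were lower at that p.

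Cytokine and prostaglandin receptors had 1 call, the rise of Il18r1. Of 22 measured, 6 were lower at an unadjusted p below 0.05, against 3.23% of all genes, and the median was -0.14. Csf1r, the macrophage colony-stimulating factor receptor, had levels of 7.75, 8.21, 5.64, 6.59 and 5.16 in Mll-AF9 HSC, against 7.74, 8.49, 8.46, 7.88 and 10.35 in wild-type HSC. Mll-AF9 replicates 1 and 2 lay in the wild-type range, and the difference was -1.92 (SE 0.58, adjusted p = 0.501). Ptger2, a second prostaglandin E2 receptor, had levels of 3.24, 3.85, 3.35, 3.68 and 3.16 in Mll-AF9 HSC, against 4.45, 5.77, 5.04, 4.65 and 7.05 in wild-type HSC. All Mll-AF9 arrays were below background, and the difference was -1.94 (SE 0.39, adjusted p = 0.112). Il7r and Ptger3, given above, Csf2rb (-0.98), the shared beta chain of the interleukin-3 receptor family, and Il6ra (-0.71) made up the rest.

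Of 23 chromatin genes related to Polycomb and trithorax, Hmga2 fell. At an unadjusted p below 0.05, 1 was higher and 2 lower, against 3.18% and 3.23% of all genes. The higher one was Kdm6a, an X-linked histone demethylase, with a difference of 0.72 (SE 0.26), which was 0.59 without the wild-type replicates that carried Y-linked signal. Beside Hmga2, the lower one was Kdm2b, a demethylase with a CpG-binding domain, at -0.54.

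Of 23 mitosis genes, 0 were called in limma. All 23 differences lay below 0, against 8656 of 18193 over all genes. At an unadjusted p below 0.05, 5 genes were lower, against 3.23% of all genes. The median was -0.45, yet the mean level of the list overlapped, between 6.47 and 8.05 in Mll-AF9 HSC and 6.97 and 8.47 in wild-type HSC. The lowest means were 6.71 and 6.47 in Mll-AF9 replicates 3 and 4, which were also lowest for neutrophil genes (5.40 and 5.55) and mast cell genes (4.08 and 4.26), while Mll-AF9 replicates 1 and 5 were at 7.76 and 8.05. The part of such cells in the mitosis values was not tested. Kif23, a kinesin of cytokinesis, separated the groups. Its levels were 6.80, 7.84, 6.98, 6.12 and 7.31 in Mll-AF9 HSC, against 8.60, 8.74, 8.99, 8.62 and 8.34 in wild-type HSC, with a difference of -1.65 (SE 0.29, adjusted p = 0.0647). The other 4 were Kif20a (-1.28), Cenpe (-1.15), Ube2c (-0.99) and Ttk (-0.78), for which the groups overlapped. Without wild-type replicates 1 and 2, the median was -0.92 and 10 genes were lower at that p. DNA replication genes had a median of -0.10, with 0 of 26 called in limma and 0 at an unadjusted p below 0.05, and 4 lower without those replicates.

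In the lists of mature lineages, limma called 0 genes. Over all genes, 3.18% were higher and 3.23% lower at an unadjusted p below 0.05. The median difference was -0.39 for 19 neutrophil and granule genes (0 at an unadjusted p below 0.05), -0.23 for 17 monocyte genes (1 higher and 1 lower), 0.19 for 16 erythroid genes (2 higher), -0.02 for 17 megakaryocyte genes (0 at that p), -0.31 for 10 mast cell genes (1 lower) and -0.04 for 17 T and NK cell genes (1 lower). Clec7a, a pattern receptor of macrophages, differed by 0.99, and the mast cell gene Ms4a2 by -1.67. In 15 stroma and endothelium genes, 1 was higher and 2 were lower at that p. They were the matrix proteoglycan gene Bgn (1.19, SE 0.31) and the growth factor receptor gene Pdgfrb (-2.23, SE 0.47) with the endothelial cadherin gene Cdh5 (-0.41), the last below background. Of 16 p53 response genes, 2 were higher, Gadd45a (1.00) and Aen (0.76). Interferon response, immediate-early, heat-shock, MYC and ribosome biogenesis, CDK inhibitor and D cyclin, and Bcl2 family genes had 0 calls in limma and 0 genes at an unadjusted p below 0.05, with medians between -0.04 and 0.15. The immediate-early median was 0.54 without wild-type replicates 1 and 2, with 1 gene higher at that p, and the interferon median was -0.27. In the lineage lists that alternative gave medians of -0.66 for neutrophil and -0.22 for megakaryocyte genes, and 4 monocyte, 2 megakaryocyte and 1 neutrophil genes were lower at that p. Only 3 wild-type arrays are left there, and replicate 5, set apart above by its interferon and immediate-early genes, is 1 of them. Its monocyte mean was 6.79, against 5.72 to 6.03 in the other wild-type arrays, and its megakaryocyte mean 6.83, against 5.29 to 5.75. The part of this array in those shifts was not tested.

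The remaining genes with the smallest p were not called. Cd96, a receptor of the nectin family that marks leukaemic stem cells in humans, had levels of 8.25, 7.70, 8.10, 8.44 and 8.47 in Mll-AF9 HSC, against 6.49, 6.69, 6.81, 7.30 and 6.66 in wild-type HSC. The groups did not overlap, and the difference was 1.40 (SE 0.24, adjusted p = 0.0565). Bpifc, of the lipid-binding BPI family, differed by 2.62 (SE 0.52, adjusted p = 0.109) with Mll-AF9 replicate 2 inside the wild-type range. Tjp1, the tight junction scaffold ZO-1, differed by 1.88, the survival kinase gene Pim2 by 1.40, the lipase gene Abhd6 by 1.37, the vesicular monoamine transporter gene Slc18a2 by 1.31, Slc16a11 by 1.21 and the HSP70 gene Hspa2 by 0.99. On the lower side, Cmah, which makes the sialic acid Neu5Gc, differed by -1.89 (SE 0.33, adjusted p = 0.0636). Slc35d3 differed by -1.71, the secreted serpin gene Serpinf1 by -1.40, and Cd93, a surface protein of early blood cells, by -0.93 (SE 0.17, adjusted p = 0.0745) with no overlap. The other probe set of Serpinf1, also above background, differed by -0.20. Other probe sets of Cd93 above background differed by -0.50 and -1.34.

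**Figure D4:**
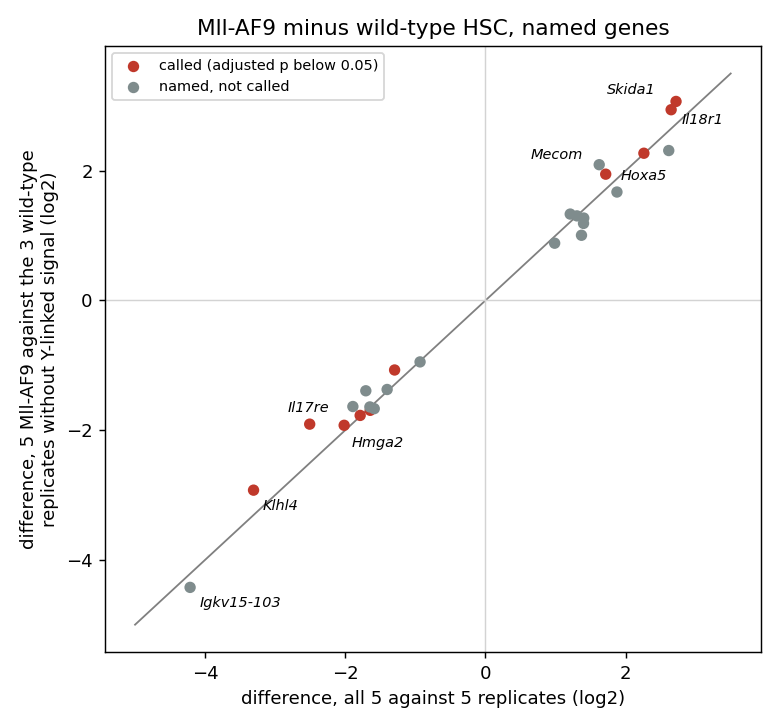
Each point is a named gene, with the difference (Mll-AF9 minus wild-type HSC, log2) over all 5 against 5 arrays on the horizontal axis and without wild-type replicates 1 and 2 on the vertical axis. The grey line marks equality, called genes are red, and Il17re (-2.51 against -1.91) and Mecom (1.62 against 2.09) are among the points away from the line.

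The genotype effect was then compared between HSC and the other populations, which had 4 Mll-AF9 and 5 wild-type replicates of CMP, 4 and 5 of GMP, and 7 and 8 of CLP. The source names of some samples titled CLP were those of CMP, and the titles were followed. Every Mll-AF9 replicate of these populations also had Y-linked genes below background. In wild type, replicates 1 to 3 of CMP and GMP and replicates 1 to 3 and 5 to 7 of CLP carried Y-linked signal. Their means of Kdm5d, Eif2s3y and Uty ran between 6.17 and 7.33. These comparisons thus hold the imbalance seen in HSC, in unequal degree, and its part in the shared calls was not tested. Limma called 77 genes in CMP (0.423%), 49 in GMP (0.269%) and 63 in CLP (0.346%). Of the 10 genes called in HSC, 7 were also called in CMP, which is 70.0% of the HSC calls and 9.09% of the CMP calls. The same 7 were called in CLP, 11.1% of the calls there, and they were Skida1, Il18r1, A930004D18Rik, Hoxa5, Klhl4, Hmga2 and Cttn. In GMP only Skida1 was shared, which is 1 of the 10 HSC calls and 2.04% of the GMP calls.

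**Figure D5:**
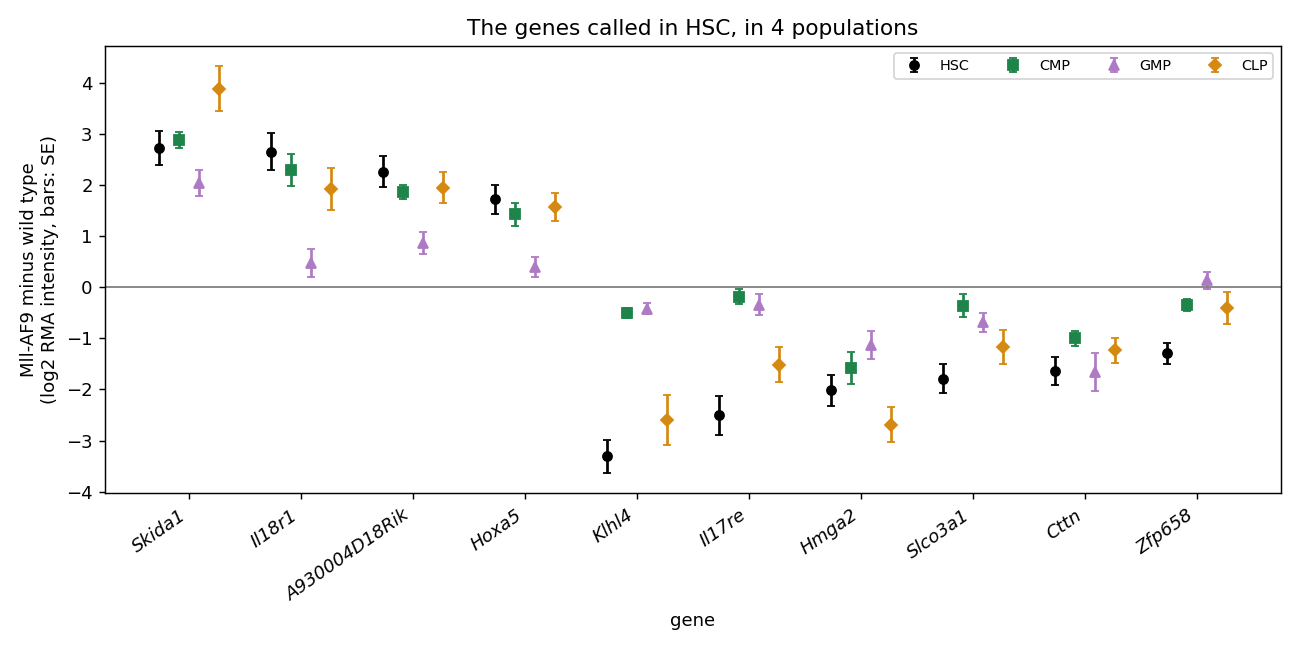
The vertical axis gives the difference, Mll-AF9 minus wild type (log2 RMA intensity, bars SE), of the 10 genes called in HSC, with HSC leftmost for each gene and then CMP, GMP and CLP. Klhl4 differs by -3.31 in HSC and -2.60 in CLP, and by -0.51 in CMP and -0.42 in GMP, where both of its means lie below background.

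The genotype effect differed between HSC and GMP for 8 genes (0.0440%), between HSC and CLP for 26 genes (0.143%) and between HSC and CMP for 0 genes in limma. For CMP, 530 genes (2.91%) differed at an unadjusted p below 0.05. None of the 10 called genes passed any of these tests. For Klhl4 the effect in HSC minus that in GMP was -2.89 (SE 0.63, adjusted p = 0.08), and for Il17re it was -2.17 (SE 0.53, adjusted p = 0.133). These tests, and those given below, took the spread of each gene over all 8 groups together. HSC groups varied more than CMP and GMP groups, so the SE may understate the spread in HSC. With only HSC and the population compared in the model, the counts were 5 for GMP, 4 for CMP and 5 for CLP.

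Several HSC genes differed from GMP in their response. Prdm16 differed by -0.90 in HSC, against a rise of 1.34 in Mll-AF9 GMP, and the effects were -2.24 apart (SE 0.45, adjusted p = 0.0333). The other probe set of Prdm16 above background differed by 0.07 in HSC, so the fall there rests on the probe set used. Ighm differed by -2.69 in HSC and 0.01 in GMP, with the effects -2.71 apart (SE 0.55, adjusted p = 0.0435), and they were also -2.28 apart from CLP (SE 0.49, adjusted p = 0.0314). Kif23 differed by -1.65 in HSC and 0.23 in GMP (-1.88 apart, SE 0.39, adjusted p = 0.0491). Tal1, a stem cell and erythroid factor, differed by 0.42 in HSC, against a fall of 1.09 on the log2 scale in Mll-AF9 GMP (1.51 apart, SE 0.29, adjusted p = 0.0333). Tmem98 differed by 0.46 in HSC and -1.49 in GMP (1.95 apart, SE 0.41, adjusted p = 0.0491). Tmem178 averaged below background in both groups of HSC, so its separation of -2.50 came with a difference of 2.42 in GMP.

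Against CLP, the genes with the largest separation were low in HSC. Trgv4, Gzma and Trbv1, of T and NK cells, and Vpreb1, of B-cell progenitors, averaged below background in HSC of both genotypes. Their effects in HSC minus CLP were -4.04, -3.78, -2.57 and 2.99. The chemokine gene Ccl5 was above background, and its effects were -2.61 apart (SE 0.47, adjusted p = 0.0046), with differences of -0.66 in HSC and 1.95 in CLP. Abhd6 differed by 1.37 in HSC and -0.41 in CLP (1.78 apart, SE 0.37, adjusted p = 0.0202).

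For 3 fusion targets that HSC normally use, Hoxa9, Mecom and Meis1, the effect in HSC was set against that in myeloid progenitors, and no test passed the threshold. Hoxa9 averaged 12.17 ± 0.43 in wild-type HSC, 9.13 ± 0.26 in wild-type CMP and 9.01 ± 0.51 in wild-type GMP. It differed by 0.65 in HSC, 2.41 in CMP and 1.79 in GMP, and the effect in HSC minus that in CMP was -1.76 (SE 0.34, adjusted p = 0.0881), short of the threshold. Mecom averaged 8.77 ± 0.79 in wild-type HSC, 4.30 ± 0.24 in wild-type CMP and 4.09 ± 0.57 in wild-type GMP. Its differences were 1.62 in HSC, 3.92 in CMP and 3.29 in GMP, and the effect in HSC minus that in CMP was -2.29 (SE 0.48, adjusted p = 0.13). The wild-type means of Mecom in CMP and GMP lay below background, and wild-type Hoxa9 was brighter in HSC than in CMP or GMP. The part of these levels in the effect sizes was not tested. Meis1 differed by 0.91 in HSC, 1.24 in CMP, 1.46 in GMP and 0.33 in CLP, and the test of its effect in HSC minus that in GMP gave -0.56 (SE 0.45, adjusted p = 0.798).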

How the data were processed

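The files hold linear intensities that the authors deposited for every probe set of each array. The summary method was RMA, per the submitters' processing notes, with no version or genome build given in the sources used here. Log2 of the deposited values was taken for all steps. No depth exists for arrays, and their number limits the precision. CMP repeat runs were averaged, which left 43 replicates. Of 45101 probe sets, 64 controls were left out and 10092 had several genes or none in the platform annotation. Of the 34945 with 1 gene, 34741 had symbols matched to the GRCm38.p6 gene table. Where a gene had several, the brightest over all replicates was kept, which gave 18193 genes.

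Genotypes were compared with limma 3.58.1 in R 4.3.3 (lmFit and eBayes, trend in intensity fitted, no covariates), and p-values were Benjamini-Hochberg adjusted over all genes. Effects were compared between populations as contrasts of contrasts in 1 model of 8 groups. The code was tested on simulated data. Named genes were the 12 higher and 12 lower with the largest difference among called genes above background, clone names passed over, filled up by smallest p, plus up to 4 called members or the smallest p of each direction per list, all HoxA, HoxB and fusion target genes, Kmt2a, Mllt3, cell type markers, Xist and Y-linked genes, and the 5 genes whose effect differed most between HSC and each other population. Others, such as Zfp658, A930004D18Rik, Mllt10, Il18rap, Klhl4's promoter and list members beyond the smallest p, were named after their values were seen. The comparison, the gene lists and the rule were chosen with earlier results of these data known, so counts within lists are descriptions. Alternatives changed the probe set choice, the filter, the normalization, the model, the covariates and the replicates.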

Additional observations from a re-analysis of the deposited data

Results flagged for a closer look

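In each group of 5 arrays, the gap between the outermost array and its neighbour was divided by the range of the group, and chance alone marks about 1 in 20 groups. Of 288 groups (144 genes in each genotype), 18 were marked. Among the called genes, wild-type replicate 1 was apart for Skida1 (0.723 of the range, high), wild-type replicate 5 for Hoxa5 (0.791, low) and Mll-AF9 replicate 5 for Il17re (0.895, high). In Mll-AF9 HSC, replicate 2 was high for Il7r (0.789), Bcl11b (0.789) and Zeb2 (0.822) and low for Zfp521 (0.759), replicate 4 was high for Igkv15-103 (0.848), and replicate 5 was low for Hoxa10 (0.744) and high for Mx1 (0.766). In wild-type HSC, replicate 5 was low for Ighm (0.86), Klf6 (0.817) and Fos (0.724) and high for Csf1r (0.712), replicate 1 was high for Hoxb4 (0.728) and Lax1 (0.858), and replicate 2 was low for Zeb2 (0.783) and Tal1 (0.783).

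The genotype effect in HSC differed from that in GMP, by a limma contrast of contrasts, for Ighm (-2.71), Tmem178 (-2.50), Prdm16 (-2.24), Kif23 (-1.88), Tal1 (1.51) and Tmem98 (1.95). It differed from that in CLP for Trgv4 (-4.04), Gzma (-3.78), Ccl5 (-2.61), Trbv1 (-2.57), Ighm (-2.28), Abhd6 (1.78) and Vpreb1 (2.99).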

How the results depend on the processing

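Against 4 higher and 6 lower genes, the counts (higher, then lower) were 29 and 49 with all 8 groups in 1 model, 15 and 24 with array weights, 8 and 7 with the 3' minus 5' value as covariate, and 7 and 18 at an adjusted p below 0.1. They were 3 and 1 with every probe set tested, 4 and 10 with dim genes filtered, 4 and 3 without the intensity trend, 3 and 1 with the Y-linked level as a covariate, and 3 and 1 without wild-type replicates 1 and 2, an alternative added after seeing the data. Of the 10 genes, 10 stayed called with array weights or all 8 groups in 1 model, 4 with every probe set tested and 3 with the Y-linked covariate. Leaving out 1 replicate gave 1 to 5 higher and 1 to 9 lower genes: 1 and 1 without Mll-AF9 replicate 3 or 4, 2 and 1 without wild-type replicate 2, and 4 and 2 without wild-type replicate 1. The labels do not say whether equal replicate numbers mark paired samples. Deviations of same-numbered arrays correlated between -0.27 and 0.07 across genes, which cannot decide it, and the replicate block gave 4 and 11.

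The effect differed between HSC and GMP for 8 genes, 4 without the trend and 5 with those populations alone (2 to 25 without 1 HSC replicate: 2 without wild-type replicate 1 or 2, 4 without Mll-AF9 replicate 1, 3 without Mll-AF9 replicate 3 or 4, 25 without Mll-AF9 replicate 5). For CMP it was 0, then 1 after renormalization and 4 with those populations alone (0 to 3, with 3 without wild-type replicate 5). For CLP it was 26, then 15 with dim genes filtered and 5 with those populations alone (11 to 57: 11 without Mll-AF9 replicate 3, 57 without Mll-AF9 replicate 5, 14 and 16 without wild-type replicates 1 and 2). With the Y-linked level as a covariate, the counts were 8 for GMP, 0 for CMP and 21 for CLP. The 3' minus 5' control difference of -0.07 ran from -0.25 to 0.11 without 1 replicate. No named gene that was called changed sign. Over its alternatives, the calls of the 10 genes were kept 141 times and lost 77 times, and the causes were not tested.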
